A study of Xenopus tropicalis with 5 samples.

Results

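The m5C sites of ccna1 and cdt1, the genes of the embryonic cyclin A1 and of the replication licensing factor Cdt1, were followed in polyadenylated RNA of Xenopus tropicalis early embryos. The members were chosen by gene symbol, as all rows of the deposited site lists that carry either name, with no minimum set on level or coverage. They comprised 6 sites, 2 in ccna1 and 4 in cdt1, of 23009 sites in 6853 genes over all lists. Both genes were proposed with the m5C levels of these lists already known, so their levels and their differences from 100 ng are given as a description and support nothing by themselves.

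RNA bisulfite sequencing (RNA BS-seq) turns cytosine without a methyl group into uracil, so that a C left in a read marks 5-methylcytosine (m5C). The level of a site is the percentage of its reads with such an unconverted C, and its coverage is the sum of its unconverted and converted reads. All 5 libraries came from wild-type X. tropicalis embryos of stage 0, pooled for RNA isolation, with poly(A) selection and no treatment, and they differed in the labelled RNA input, which was 5 ng, 10 ng, 20 ng (1 library each) or 100 ng (2 libraries). The 2 libraries of 100 ng, which the study calls technical replicates in its text and biological replicates in a supplementary legend, were deposited as 1 combined list, so there were 4 lists and no replicate spread at any input.

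No listed site had fewer than 20 reads or a level under 10%. The lists of 5, 10 and 20 ng held 12341 to 13178 sites with a median coverage of 80 to 83 reads, and the 100 ng list held 18524 sites in 6458 genes with a median of 183 reads. The median level over all listed sites was 22.2 to 22.4% at the lower inputs and 20.9% at 100 ng. The lists hold m5C sites and no expression values, so the labelled tissue could be checked only through coverage. The egg kinase genes wee2 and mos were among the listed genes at 100 ng, with up to 23401 reads at a wee2 site and up to 7561 reads at a mos site. The Clopper-Pearson (exact) intervals of levels and the Newcombe intervals of differences below are 95% intervals that cover counting error only, since reads without molecular identifiers are not independent molecules.

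A-type cyclins bind and activate cyclin-dependent kinases in S phase and on entry into mitosis. In frogs cyclin A1 is described as the main form of the egg and the rapid cleavage divisions. Cyclin A2 is described as the main form of later embryos and somatic cells. Cdt1 brings the MCM helicase to origins that carry the origin recognition complex and Cdc6, which licenses them for replication. It is held back by geminin and destroyed once replication begins, so that no origin is licensed again in the same cycle. Because cleavage proceeds with little transcription, it relies on mRNAs and proteins stored in the egg. In mRNA, m5C is written by the methyltransferases NSUN2 and NSUN6.

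The 2 sites of ccna1 (gene2546) lie on the minus strand of chromosome 2 of the v9.1 assembly, which the study names, and are numbered here in the direction of transcription. Site 1 is at position 148997555 and site 2 at position 148991090, 6465 nt apart. The 4 sites of cdt1 (gene7609) lie on the plus strand of chromosome 4 at positions 60848364 (site 1), 60848387 (site 2), 60853288 (site 3) and 60855423 (site 4). Sites 1 and 2 of cdt1 are 23 nt apart and are followed by gaps of 4901 and 2135 nt. Reads that cover one of these neighbours will often cover the other, so they are not independent measurements. No site of another gene was listed between the sites of either gene, and the nearest ones at 100 ng were 68482 nt from ccna1 (spg20) and 40489 nt from cdt1 (trappc2l). Whether a site lies in a coding or an untranslated exon, and the bases around it, were not analysed here.

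Site 2 carried nearly all of the ccna1 reads. It had 1028 unconverted of 4086 reads at 5 ng, 915 of 3483 at 10 ng, 1051 of 4052 at 20 ng and 4025 of 13784 at 100 ng. Its level was 25.2% (interval 23.8 to 26.5%) in the 5 ng list, 26.3% (24.8 to 27.8%) in the 10 ng list, 25.9% (24.6 to 27.3%) in the 20 ng list and 29.2% (28.4 to 29.97%) in the 100 ng list. The 3 lower inputs lay within 1.11 points of each other, and the interval at 100 ng overlapped none of theirs. With its 13784 reads this site ranked 84 by coverage among the 18524 sites of the 100 ng list. By level it was less extreme, since 65.5% of the listed sites were below it.

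Site 1 of ccna1, the upstream one, was listed only at 10 ng and at 100 ng. It had 7 unconverted of 30 reads at 10 ng, a level of 23.3% (interval 9.93 to 42.3%), and 25 of 99 reads at 100 ng, a level of 25.3% (17.1 to 35.0%). Its level was not distinguishable from that of site 2 at this depth. Scaled by the coverage ratio of site 2, its 99 reads would become 29.3 at 5 ng and 29.1 at 20 ng. These are close to the 20 reads below which no site is listed. No site at 5 or 20 ng had fewer than 5 unconverted reads, and site 1 had only 7 at 10 ng. Of all 6209 sites with 50 to 149 reads at 100 ng, the 5, 10 and 20 ng lists held 36.0, 27.9 and 37.2%, so its absence from lists is common at this coverage and says nothing of its level there.

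All 4 cdt1 sites were listed at every input. Site 1 was the most methylated, with 519 unconverted of 1182 reads at 5 ng, 584 of 1408 at 10 ng, 626 of 1529 at 20 ng and 3083 of 7556 at 100 ng. Its level was 43.9% (interval 41.1 to 46.8%) in the 5 ng list, 41.5% (38.9 to 44.1%) in the 10 ng list, 40.9% (38.5 to 43.5%) in the 20 ng list and 40.8% (39.7 to 41.9%) in the 100 ng list. These 4 intervals overlapped.

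Site 2 of cdt1, only 23 nt downstream, was the least methylated in every list. It had 206 unconverted of 1277 reads at 5 ng, 212 of 1479 at 10 ng, 284 of 1656 at 20 ng and 1405 of 7996 at 100 ng. Its level was 16.1% (interval 14.2 to 18.3%) in the 5 ng list, 14.3% (12.6 to 16.2%) in the 10 ng list, 17.1% (15.4 to 19.1%) in the 20 ng list and 17.6% (16.7 to 18.4%) in the 100 ng list. At 5, 10, 20 and 100 ng the level of site 1 was thus 2.72, 2.89, 2.39 and 2.32 times that of site 2, at nearly equal coverage.

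Site 3 of cdt1 was the shallowest of the gene and varied most between lists. It had 100 unconverted of 473 reads at 5 ng, 79 of 344 at 10 ng, 105 of 427 at 20 ng and 400 of 1288 at 100 ng. Its level was 21.1% (interval 17.5 to 25.1%) in the 5 ng list, 23.0% (18.6 to 27.8%) in the 10 ng list, 24.6% (20.6 to 29.0%) in the 20 ng list and 31.1% (28.5 to 33.7%) in the 100 ng list. The values followed the order of the inputs, but the intervals of the 3 lower inputs overlapped each other, and the interval at 20 ng also overlapped that at 100 ng.

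Site 4 of cdt1 had 275 unconverted of 1429 reads at 5 ng, 268 of 1467 at 10 ng, 273 of 1504 at 20 ng and 1204 of 5944 at 100 ng. Its level was 19.2% (interval 17.2 to 21.4%) in the 5 ng list, 18.3% (16.3 to 20.3%) in the 10 ng list, 18.2% (16.2 to 20.2%) in the 20 ng list and 20.3% (19.2 to 21.3%) in the 100 ng list. Its 4 intervals overlapped.

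**Figure D1:**
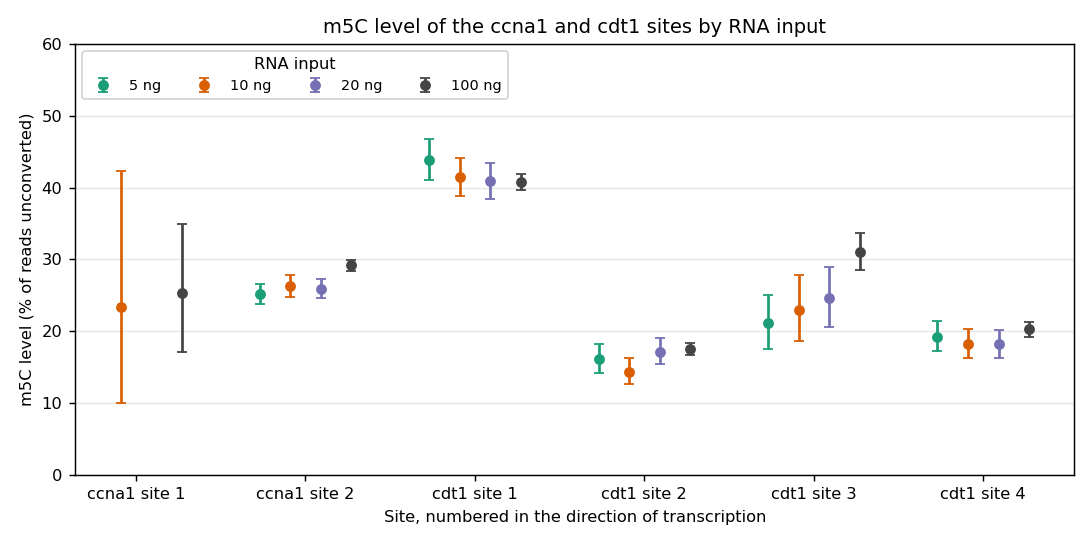
m5C level (% of reads unconverted, y axis) of the 2 ccna1 and 4 cdt1 sites (x axis) at 5, 10, 20 and 100 ng of RNA input; points are levels and bars exact 95% Clopper-Pearson intervals, which cover counting error only. Site 1 of cdt1 stayed between 40.8 and 43.9% and site 2, its neighbour, between 14.3 and 17.6%, and all sites but site 1 of cdt1 were highest at 100 ng, among them site 2 of ccna1 (29.2%) and site 3 of cdt1 (31.1%).

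The order of the cdt1 sites by level was the same in all 4 lists, with site 1 first, then site 3, site 4 and site 2. Site 1 was clear of the next site in every list, by 22.8, 18.5, 16.4 and 9.75 points at 5, 10, 20 and 100 ng. The intervals of sites 3 and 4 overlapped at 5 and 10 ng and were apart at 20 and 100 ng. Those of sites 4 and 2 overlapped at 5 and 20 ng and were apart at 10 and 100 ng. The spread between the sites of the gene in 1 list was therefore larger than the spread of any 1 of its sites between lists, which was at most 9.91 points (site 3) and 3.24 points or less at the other sites.

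Among all listed genes, ccna1 and cdt1 stood higher by coverage than by level. By their deepest site they ranked 55 (ccna1) and 98 (cdt1) of 6458 genes at 100 ng. Such coverage was not particular to them among genes of the pathways below. At 100 ng ube2c reached 41911 reads at a site, ccnb2 34063, plk1 22764 and mcm7 21345, while others such as ccnb3 (69 reads) were shallow. The median level of the sites was 27.2% for ccna1 and 25.7% for cdt1 at 100 ng, above that of 64.4% and 60.8% of the genes. At 5, 10 and 20 ng it was 25.2, 24.8 and 25.9% for ccna1 and 20.2, 20.6 and 21.4% for cdt1. For ccna1 it rests on 1 site at 5 and 20 ng and on 2 sites at 10 and 100 ng. Site 2 alone, the one listed at every input, had 26.3% at 10 ng and 29.2% at 100 ng. In the 5, 10 and 20 ng lists the ccna1 median was above that of 55.75, 52.19 and 56.97% of the genes. The cdt1 median was above that of 38.27, 38.76 and 42.04%, a minority of the genes at each lower input. With 4 sites, cdt1 had more than the 73.4% of genes with fewer than 4, while 1102 genes had more sites than cdt1 and 2671 had more than ccna1.

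The study used the lower inputs to ask whether little RNA gives the same m5C levels. At each site with at least 50 reads in both lists, Fisher's exact test (two-sided) set the unconverted and converted reads of a lower input against those of 100 ng, with p-values adjusted by Benjamini-Hochberg over all such sites. With 1 list for each input, the test is one of lists and cannot stand for inputs. Of the 5 ccna1 and cdt1 sites with enough reads, the test called 2 at 5 ng, where it called 0.278% of 7923 sites in all. At 10 ng it called 0 of the 5, beside 0.0406% of 7385 sites. An unadjusted p under 0.05 was reached there by 3 of the 5, beside 8.61% of all sites. At 20 ng the test called 1 of the 5, beside 0.15% of 8018 sites. The called sites were lower than at 100 ng in each case, as were 0.24% of the sites tested at 5 ng and 0.112% at 20 ng. Nothing is read from the excess over these shares, because the genes were proposed with such calls known, and because, of sites with at least 1000 reads at 100 ng, 0.579% were called at 5 ng, 0.0407% at 10 ng and 0.325% at 20 ng, more often than over all sites at 5 and 20 ng.

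Site 2 of ccna1 differed from the 100 ng list by -4.04 points in the 5 ng list (interval -5.56 to -2.49), by -2.93 points in the 10 ng list (-4.56 to -1.26) and by -3.26 points in the 20 ng list (-4.79 to -1.70). It was called at 5 ng, with an adjusted p of 0.00108 by Fisher's exact test, and at 20 ng, with 0.0327, but not at 10 ng, with 0.129. By p it ranked 3 among the 7923 sites compared at 5 ng. When the reads of the lower inputs were summed per site, its level was 25.8% over 11621 reads against 29.2% at 100 ng. Fisher's exact test gave it an adjusted p of 3.05e-06 and called 0.327% of the 8554 sites in that comparison. Such a sum, here and for site 3 of cdt1, treats reads of separate libraries as a single list. Its p holds no spread between libraries. The differences at 5, 10 and 20 ng all share the same 100 ng list and are not independent of each other.

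Site 3 of cdt1 differed by -9.91 points in the 5 ng list (-14.2 to -5.30), by -8.09 points in the 10 ng list (-13.0 to -2.76) and by -6.47 points in the 20 ng list (-11.1 to -1.51). Only the difference at 5 ng was called, with an adjusted p of 0.0270 by Fisher's exact test, against 0.249 at 10 ng and 0.524 at 20 ng. Summed over the lower inputs its level was 22.8% over 1244 reads, against 31.1% at 100 ng, with an adjusted p of 0.00272.

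Between the lower inputs, levels had 1.42 times the variance of binomial sampling, taken at sites with levels of at least 30%. The factors against 100 ng were larger, at 1.59, 1.57 and 1.45 for 5, 10 and 20 ng. These larger factors were not used in the tests. Site 2 of ccna1 was under 30% in every list, where no factor was taken. With the variance multiplied by the factor of 1.42, 0 of the 5 sites passed in a normal test at 5, 10 or 20 ng, beside 0.0252%, 0% and 0.0125% of all sites. In that test 2, 3 and 2 of the 5 had an unadjusted p under 0.05. The share of all sites at that p was not taken, so nothing can be read from these counts. The adjusted p at 5 ng then was 0.0505 for site 2 of ccna1 and 0.365 for site 3 of cdt1, within ranges over the alternatives of 3.05e-06 to 0.0505 and of 0.00272 to 0.365. With the lower inputs summed and the factor of 1.42, where 0.0701% of 8554 sites passed, it was 0.000862 for site 2 of ccna1, which passed, and 0.0743 for site 3 of cdt1, which did not. No factor was measured for the summed inputs.

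The 3 other cdt1 sites were not called at any input. Site 1 was the only one above 100 ng at the lower inputs, by 3.11 points in the 5 ng list (0.0891 to 6.16), 0.68 points in the 10 ng list (-2.10 to 3.49) and 0.14 points in the 20 ng list (-2.54 to 2.86). Site 2 had its largest difference at 10 ng, -3.24 points (-5.13 to -1.19) with an adjusted p of 0.217 by Fisher's exact test. At 5 and 20 ng its differences were -1.44 and -0.42 points. The differences of site 4 were -1.01, -1.99 and -2.10 points at 5, 10 and 20 ng, and each of these intervals included 0. Averaged over its 4 sites, cdt1 had 25.1, 24.3 and 25.2% at 5, 10 and 20 ng, against 27.4% at 100 ng. The counting SE of 0.798 to 0.835 points takes the 4 sites as independent, although reads will often cover both site 1 and site 2. The differences were -2.31, -3.16 and -2.21 points. Weighted by reads, these differences were -1.51, -2.41 and -1.56 points. Over all sites compared, the mean difference was -0.41, -0.01 and -0.05 points at 5, 10 and 20 ng.

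**Figure D2:**
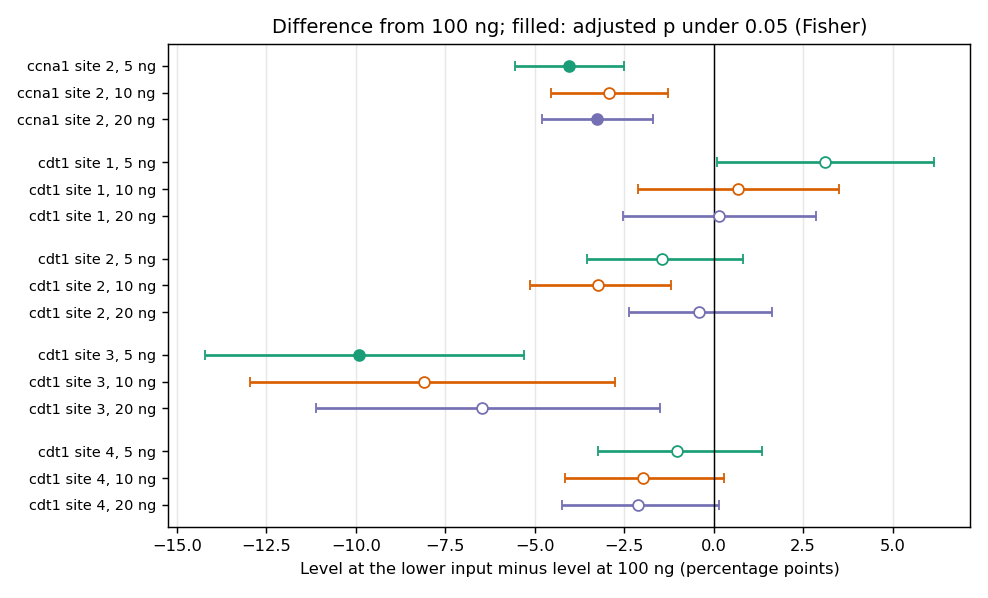
Level at the lower input minus level at 100 ng (percentage points, x axis) for the 5 ccna1 and cdt1 sites with at least 50 reads in both lists, at 5, 10 and 20 ng (y axis); bars are 95% Newcombe intervals for counting error and filled points have an adjusted p under 0.05 by Fisher's exact test. Filled points are site 2 of ccna1 at 5 ng (-4.04 points) and 20 ng (-3.26 points) and site 3 of cdt1 at 5 ng (-9.91 points).

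Comparisons among the lower inputs do not involve the 100 ng list. None of the 5 sites was called for 5 against 10 ng, 5 against 20 ng or 10 against 20 ng, where Fisher's exact test called 0.0146%, 0.0279% and 0.0429% of all sites, and none passed in the normal test with the variance factor. The count at an unadjusted p under 0.05 by Fisher's exact test was 0, 0 and 1, beside 7.21%, 6.66% and 6.54% of all sites. The 1 counted was site 2 of cdt1, with a difference of -2.82 points for 10 ng against 20 ng (-5.35 to -0.256) and an adjusted p of 0.659 by Fisher's exact test. Site 2 of ccna1 differed by -1.11 points for 5 against 10 ng (-3.09 to 0.861), by -0.78 points for 5 against 20 ng (-2.67 to 1.12) and by 0.33 points for 10 against 20 ng (-1.65 to 2.33). For site 3 of cdt1 the differences were -1.82, -3.45 and -1.63 points in the same order. Its intervals ran from -7.67 to 3.86, from -8.95 to 2.03 and from -7.59 to 4.47 points. Differences of several points between the lower inputs were thus not detectable at its coverage.

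Coverage itself differed between the members. At the 2418 to 2460 sites with at least 1000 reads at 100 ng, the coverage at 5, 10 and 20 ng divided by that at 100 ng had medians of 0.199, 0.206 and 0.241. Site 2 of ccna1 had ratios of 0.296, 0.253 and 0.294, higher than 91.6%, 87.2% and 89.6% of these sites. Site 3 of cdt1 had 0.367, 0.267 and 0.332, higher than 97.1%, 91.6% and 96.0% of them. Sites 1 and 2 of the same gene were on the low side, with 0.156 and 0.160 at 5 ng, 0.186 and 0.185 at 10 ng and 0.202 and 0.207 at 20 ng. Site 4 lay between, with 0.240, 0.247 and 0.253. The sites called at a lower input, site 2 of ccna1 and site 3 of cdt1, thus also had relatively more reads at the lower inputs. Site 2 of cdt1, with -3.24 points at 10 ng, had relatively fewer, and the part of coverage in the level differences was not tested.

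**Figure D3:**
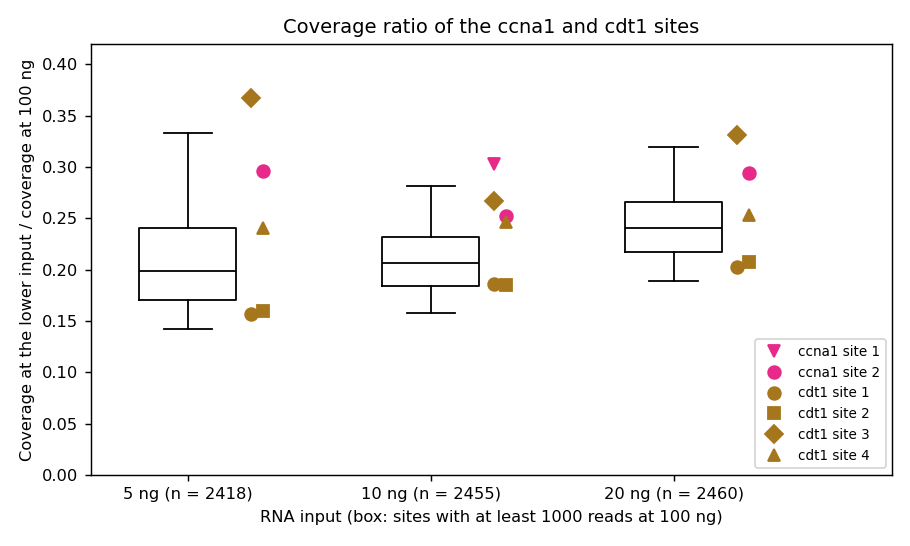
Coverage at the lower input divided by coverage at 100 ng (y axis) at 5, 10 and 20 ng (x axis); boxes show the median and quartiles, with whiskers from the 5th to the 95th percentile, of sites with at least 1000 reads at 100 ng, and symbols the ccna1 and cdt1 sites (site 1 of ccna1, shown at 10 ng, had only 99 reads at 100 ng). Site 3 of cdt1 (0.367, 0.267 and 0.332) and site 2 of ccna1 (0.296, 0.253 and 0.294) lie above the boxes, and sites 1 and 2 of cdt1 lie below the boxes at 5 and 20 ng and in the lower part of the box at 10 ng.

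The genes of the same pathways were taken from 6 lists of symbols. Of the 21 cyclin and cyclin-dependent kinase genes with a symbol in the reference gene table, 13 had a listed site at 100 ng, 25 sites in all with a median level of 24.7%, beside 20.9% over all sites. Those without a site there were ccnd1, ccne2, ccnf, cdk6, ccnh, mnat1, cks1b and cks2, of which ccne2 had 1 site at 5 ng. No site is listed under 20 reads or under a level of 10%, so a gene without a site, in this or the other lists, may still be expressed or methylated. The share of all reference genes with a site is not given here. The genes of the list with the most sites were cdk4 with 4 sites (12.3 to 39.2%), ccne1, the E-type cyclin of S phase entry, with 3 (20.3 to 47.7%), cdk2, a partner kinase of cyclins A and E, with 3 (21.3 to 36.4%), and the B-type cyclin ccnb2 with 2 (33.3 and 70.7%). By number of sites ccnb2 was tied with ccna1, ccnb1, ccno and cdk1, and is named for its higher median level. The cyclin A2 gene ccna2, named here as the counterpart of ccna1 after its values were seen, had 1 site with 11.6% of 8598 reads. Reads of ccna2 were thus plentiful at stage 0 as well. Of 19 sites compared in this list at 5 ng and 19 at 20 ng, a ccna1 site was called lower at 5 ng, and 1 of ccna1 and 1 of ccnb2 at 20 ng, beside 0.278% and 0.15% of all sites. Among 20 sites at 10 ng none was called by the exact test, and none was called higher at any input.

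Among 14 regulators of these kinases, 10 had a site at 100 ng, 23 sites with a median of 17.0%, and wee1, cdkn1b, ensa and spdya had none. The polo kinase gene plk1 had 6 sites (up to 54.3%), mos, the kinase that holds the egg in meiotic arrest, 4 (lowest 10.1%), the phosphatase gene cdc25a 3 (12.9 to 68.4%) and the inhibitory kinase gene pkmyt1 2 (56.0 and 73.6%), as many as wee2 and arpp19, which had lower median levels. A plk1 site was the list's single call among 15, 13 and 14 sites compared at 5, 10 and 20 ng, lower each time, beside 0.278%, 0.0406% and 0.15% of all sites. Of 19 genes of the anaphase-promoting complex and its regulators, which mark cyclins for destruction, 15 had a site, 35 sites with a median of 18.8%, and anapc11, anapc15, cdc26 and fbxo5 had none. The subunit genes anapc1, anapc2 and anapc5 had 4, 4 and 3 sites and the inhibitor gene fbxo43 had 4, at 11.4 to 61.0% over these genes, and cdc20 and cdc27 also had 3, with lower median levels than anapc5. None of the 19, 20 and 22 sites compared in this list at 5, 10 and 20 ng was called, beside the same shares of all sites.

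Of the 21 replication licensing genes, 15 had a site at 100 ng, 44 sites with a median level of 20.4%, which places 2 of the cdt1 sites above it by over 10 points and the other 2 below it. The origin recognition genes orc1 and orc4 had 8 sites (10.5 to 60.3%) and 5 sites (11.8 to 63.7%), and the helicase subunit gene mcm6 had 4 (18.4 to 94.2%). The geminin gene gmnn had 1 site, with 17.7% of 7049 reads, which is named here as the partner of cdt1 after its values were seen. No site was listed at 100 ng in orc2, orc3, cdc6, gmnc, mcm6.2 and mcm8, of which orc2 had 1 site at 10 ng. The single call in the list was that of cdt1 at 5 ng, among 32 sites compared, beside 0.278% of all sites. None of the 30 sites compared at 10 ng and 32 at 20 ng was called, beside 0.0406% and 0.15% of all sites.

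Of 15 origin firing genes, 12 had a site at 100 ng, 40 sites with a median of 17.8%, and gins1, gins2 and gins4 had none in that list. The most sites were in ticrr, the gene of Treslin, with 9 (14.3 to 28.4%), the helicase gene recql4 with 7 (11.3 to 75.3%), donson with 5 (10.4 to 47.5%) and the scaffold gene topbp1 with 3 (11.5 to 44.4%), equal in number to dbf4b, mtbp and wdhd1, which had lower median levels. Among 9 genes of the ubiquitin ligases that destroy Cdt1, 4 had a site at 100 ng, 15 sites with a median of 17.8%. These were ddb1 (4 sites, 10.1 to 87.8%), skp2 (4 sites, 11.7 to 44.9%), cul1 (4 sites, 10.4 to 58.1%) and dtl, the gene of Cdt2 (3 sites, 11.7 to 36.5%). The replication clamp gene pcna, on which Cdt1 is recognised, had no site at 100 ng, nor did cul4a, cul4b, rbx1 and skp1. Of these genes gins2, at 5 and 10 ng, and cul4a, at 5 ng, had a site in a lower-input list. At 5, 10 and 20 ng the exact test called none of the 22, 25 and 24 sites compared in the origin firing list and none of the 10, 10 and 9 in the other, beside 0.278%, 0.0406% and 0.15% of all sites.

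**Figure D4:**
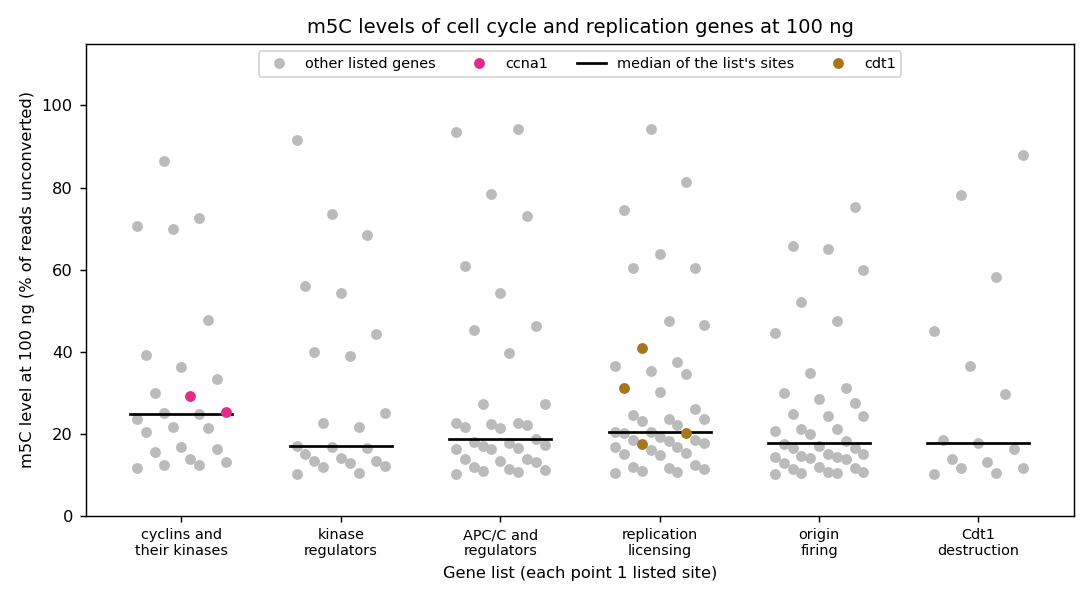
m5C level at 100 ng (% of reads unconverted, y axis) of every listed site in 6 lists of cell cycle and replication genes (x axis), each point being 1 site and each black line the median of the list's sites. The ccna1 sites (25.3 and 29.2%) lie near the median of the cyclin list, 24.7%, and the cdt1 sites (17.6 to 40.8%) lie on both sides of the licensing median, 20.4%.

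The genes most like ccna1 and cdt1 were sought among the 4041 genes with a site in every list. The distance was taken over 12 values, each in units of its SD over genes. These were the log2 number of sites, the median level in percent and the log2 median coverage in each list. The nearest to ccna1 was cdk1, the kinase that cyclin A activates at mitosis, at a distance of 1.47, followed by wee2 at 1.73 and nhp2l1 at 1.75, where the median over all genes was 7.49. In cdk1, 1 site was listed at each lower input, with 23.9, 26.1 and 24.7% at 5, 10 and 20 ng, and 2 sites at 100 ng, with 24.7% of 7435 reads and 12.3% of 122 reads. The nearest to cdt1 were cyp26a1 at 0.808, ctf1 at 0.856 and caprin1 at 0.880, where the median was 6.27. These 3 genes had 4 or 5 sites each at every input and median levels of 17.7 to 25.2% at 100 ng.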

How the data were processed

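RNA BS-seq libraries from stage 0 X. tropicalis embryos were analysed from the deposited site lists. According to the study's methods and processing notes, the authors trimmed reads with cutadapt and Trimmomatic, mapped them with HISAT2 (2.10 in the notes) to the v9.1 Xenbase genome converted in silico, mapped the rest with Bowtie2 to the transcriptome, and filtered bases, reads with many unconverted cytosines and conversion-resistant genes. The read filter can lower levels in dense clusters. The deposited coverage is a read count per site and the deposited level a fraction, printed here as a percentage. The authors also gave each call a p-value, which was not used. Input means the labelled amount, since the protocol shared by all libraries states a conversion of at least 100 ng. Positions are printed as deposited, and the files do not state whether they count from 0 or 1.

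Level times coverage gave unconverted reads, whole to within 2.6e-05. Sites were matched by chromosome, position and strand. Fisher's exact test was run at all sites with at least 50 reads in both lists, with Benjamini-Hochberg adjustment and a threshold of 0.05. It was tried before use on data simulated by binomial sampling, which do not hold the extra variance found between lists. The variance factor is the mean squared standardised difference between lower inputs, taken where levels reached 30% and coverage 50 reads. Python 3.11.15 and scipy 1.17.1 were used.

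The members and gene lists were chosen with earlier results of these data known. Named pathway genes were up to 4 per list with the most sites at 100 ng (ties by higher median level) and those without a site, and the 3 genes nearest to each member. Symbols absent from the reference gene table (UCB_Xtro 10.0, used for names only) were left out of the denominators, and the origin firing list also held dnttip2, which is not known as a firing factor.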

Additional observations from a re-analysis of the deposited data

How the results depend on the processing

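Most alternatives changed only the p-values and left the differences of the ccna1 and cdt1 sites from 100 ng as they were. Summing the lower inputs moved them, but it averages differences of the same sign at each site, so no sign could change. With the variance factor, 0 of the 5 sites passed at 5 and at 20 ng, by the normal test. With each list's own level in the variance, a setting added after seeing the data, 1 passed at 5 ng and 0 at 20 ng. Over all sites that setting passed 6 of 7923 at 5 ng and 1 of 8018 at 20 ng. Summing the lower inputs gave 2 called sites in place of 0 at 10 ng and 1 at 20 ng, beside 0.327% of all sites. Of the single-site results over all alternatives, 127 stayed on their side of the threshold, 5 no longer passed and 3 newly passed. Most of those that stayed were not called at the main setting either. The called site 2 of ccna1 passed in 5 of 6 alternatives at 5 ng and in 4 of 6 at 20 ng. Site 3 of cdt1 passed in 4 of 6 at 5 ng. The 3 that newly passed all came from the summed lower inputs. With a level of at least 20%, cdt1 kept 2 sites at 5, 10 and 20 ng, and the ranks by number of sites at 100 ng were 1195 for ccna1 and 592 for cdt1. With at least 50 reads, ccna1 had 1 site at 10 ng. The read-weighted levels of cdt1 at 5, 10 and 20 ng were 25.2, 24.3 and 25.2%, above its medians and close to its unweighted means. The read-weighted difference of cdt1 from 100 ng at 5 ng was -1.51 points in place of -2.31, just over 1 counting SE away. This and the other values not given here, 68 in all, stayed within 95% counting intervals or, for counts and ranks, within 1.5 times. The alternatives for the comparisons among lower inputs were also added after seeing the data.

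Leaving out a library was not run, since the 100 ng list combines its 2 libraries and each lower input has 1. No paired analysis was possible because the lower inputs have 1 library each. Depth limits site 1 of ccna1 most, with 30 reads at 10 ng and 99 reads at 100 ng.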

Other observations

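The coverage ratio and the level difference from 100 ng were set against each other over all sites with at least 1000 reads at 100 ng, after the values of the ccna1 and cdt1 sites had been seen. Across these sites, which share libraries and the 100 ng reads in both measures and are no replicates, Pearson's r of the log2 coverage ratio with the level difference was -0.12 at 5 ng (2418 sites), -0.05 at 10 ng (2455 sites) and -0.04 at 20 ng (2460 sites), and Spearman's rho was -0.10, -0.04 and -0.04. In the 10% of sites with the highest ratio, the median differences at 5, 10 and 20 ng were -1.08, -0.50 and -0.44 points, compared with -0.25, -0.09 and -0.03 points at the other deep sites. Of the 14 deep sites called at 5 ng, 10 were in that 10%, as was 1 of 1 at 10 ng and 3 of 8 at 20 ng. For the same reads at 100 ng, a higher ratio gives more reads at the lower input. The same difference is then called more readily, so nothing is read from these counts. The 10 include site 2 of ccna1 and site 3 of cdt1, whose values prompted the comparison. At 20 ng the called site 2 of ccna1, with a ratio of 0.294, was outside that 10%, which began at 0.295. Whether coverage has a part in these level differences was not tested.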
